A study of Mus musculus with 18 samples.

Results

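The comparison set 2 groups of control mice side by side, those that received a vector with a scrambled short hairpin RNA (shRNA) and those that received the control vector of an overexpression experiment. All 5 libraries labelled scrambled shRNA and all 4 labelled control OE were taken by their treatment label, 9 of the 18 libraries of the series. RNA came from translating ribosome affinity purification (TRAP), which pulls down tagged ribosomes of a chosen cell type with the mRNA they carry. Every mouse gave 1 library from its left and right entorhinal cortex combined, and the title names layer II neurons as the cells studied. Both control vectors carried mCherry, as did the Ptbp1 shRNA and Ptbp1 overexpression vectors given to the other 9 mice. The sources used here do not give strain, age, sex, promoter, ribosome tag or time after injection, and the tissue label of each library reads hippocampus. The authors left out 1 control mouse of the overexpression experiment because no read mapped to mCherry. Each control group belongs to its own experiment, so vector, experiment, input RNA and sequencing cannot be told apart in any difference below.

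A scrambled shRNA has no intended target, and a control vector delivers its marker without the gene under study, so neither is designed to alter a particular gene. TRAP retains mRNA on cytosolic ribosomes. Ribosomal RNA is part of the captured particle, whereas mitochondrial mRNA is translated by the organelle's own ribosomes, and RNA of neighbouring cells sits on ribosomes without the tag. Copying and amplifying RNA for sequencing can depend on its base composition, given here as the share of guanine and cytosine (GC).

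The scrambled shRNA libraries held 35750561 to 46544178 gene counts and the control vector libraries 18288627 to 26325826. Fewer genes were detected in the deeper group, 14841 to 17013 against 19893 to 20719, and the order was the same after thinning to equal depth, 14376 to 16313 against 19893 to 20443 (exact two-sided permutation p = 0.0159, the smallest this design allows, adjusted p = 0.019 over 12 measures). The spread between mice differed too, with a biological coefficient of variation of 98.4% among scrambled shRNA and 19.9% among control vector libraries. Spearman correlations across genes were 0.848 to 0.899 within the former, 0.981 to 0.989 within the latter and 0.804 to 0.866 between groups. Scrambled shRNA replicate 5 stood apart with 14841 genes detected, against 16418 or more in the other 4. Without it 6460 genes passed the test described next, against 5558 with it.

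Of 16249 genes tested with edgeR's quasi-likelihood test, 5558 differed between the control groups at an adjusted p under 0.05, or 34.2%. These were 3159 genes higher in the scrambled shRNA libraries (19.4%) and 2399 lower (14.8%). The share higher rose with level, at 0.892%, 4.06%, 11.1%, 24.9% and 56.2% from the lowest to the highest level quintile of all genes tested. The gene lists below were not matched for level. Another 1399 genes (8.61%) had a 95% interval of the difference inside 2-fold in both directions, and are called held here; 169 of them also passed the test as small differences. The remaining 9461 genes (58.2%) were neither called nor held, so nothing can be said of them at this spread. Values of both groups did not overlap for 6468 genes (39.8%). Higher genes made up 56.8% of the calls, against 43.2% with limma voom and group quality weights, which moved the median of all genes from 0.01 to -0.52 on the log2 scale. Upper quartile scaling moved that median to -0.20, so differences below that size depend on the scaling.

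Ptbp1 itself, the splicing repressor altered in the other mice, was low in both control groups. Its level was 3.86, 1.05, 7.57, 0.40 and 10.3 CPM (gene counts relative to the TMM-scaled library size) in scrambled shRNA replicates 1 to 5, and 13.8, 11.1, 7.94 and 9.80 in control vector replicates 1 to 4. The groups overlapped, and the log2 difference of -1.20 did not pass the test (95% interval -2.96 to 0.55, adjusted p = 0.279), although limma voom with group quality weights called it lower (-2.10, adjusted p = 0.0387). Its neuronal paralog Ptbp2 was higher in scrambled shRNA, 238 ± 47.8 against 87.8 ± 2.64 CPM (SD, n = 5 and 4 here and below, log2 difference 1.44, SE 0.17, adjusted p = 6.68e-05). Ptbp3, the third member, was also higher at 59.5 ± 15.7 against 16 ± 1.66 CPM (1.90, adjusted p = 0.00016). With the offsets for GC content and length described below, neither passed, at -0.40 for Ptbp2 (adjusted p = 0.182) and 0.27 for Ptbp3 (adjusted p = 0.531). Mapt, which encodes tau, held at 217 ± 51.9 against 251 ± 23.5 CPM, with an interval of -0.60 to 0.18.

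**Figure D1:**
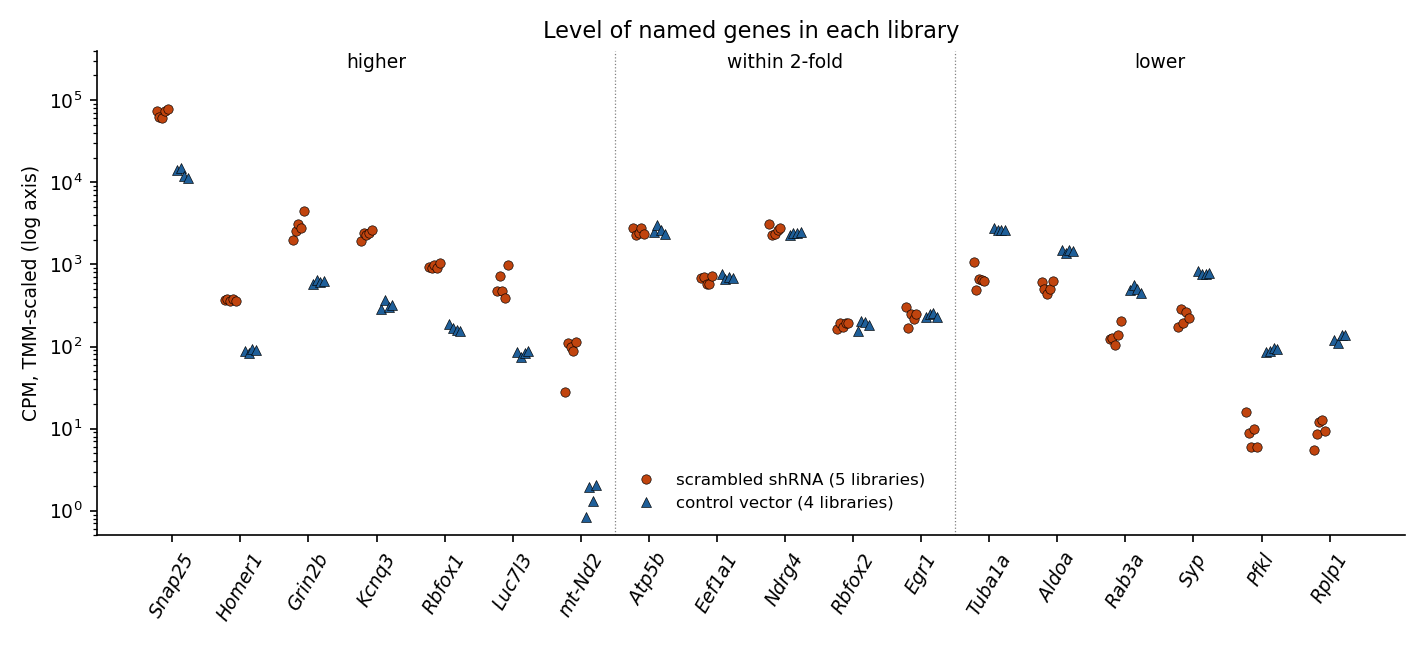
CPM of 18 named genes in each library (log axis, one point per mouse, circles for scrambled shRNA and triangles for control vector). The genes on the left do not overlap between groups and are higher in scrambled shRNA, those in the middle overlap, and those on the right do not overlap and are lower.

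Genes of the Y chromosome separated the groups completely. Ddx3y, an RNA helicase, was at 55.4, 95, 56.5, 43.3 and 50.5 CPM in the scrambled shRNA libraries and at 0 in all 4 control vector libraries. The histone demethylase genes Uty and Kdm5d and the translation initiation gene Eif2s3y showed the same split. Total counts over the scrambled shRNA libraries were 10654 for Ddx3y, 6247 for Uty, 3007 for Kdm5d and 3029 for Eif2s3y, against 0 for each in the control vector group. Against a floor of 3 counts over the group these were at least 2250-fold, 1310-fold, 682-fold and 621-fold higher. Xist, the RNA that silences an X chromosome in female cells, was at 4.79, 3.72, 2.0 and 9.19 CPM in the control vector libraries and had no count in any scrambled shRNA library, at least 289-fold lower. It overlaps the antisense gene Tsix. The labels give no sex, and the Y-linked and Xist counts follow the experiment in each of the 9 libraries, so sex and experiment cannot be told apart.

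X-linked genes that escape silencing did not move as a group. Kdm6a was higher at 69.8 ± 23.5 against 30.1 ± 1.10 CPM (1.21, adjusted p = 0.00645), but at 0.07 with GC and length offsets (adjusted p = 0.886). Kdm5c was at 16.1 ± 9.04 against 32 ± 4.66 CPM and did not pass the test (-1.0, adjusted p = 0.0751), but did without scrambled shRNA replicate 1 (-1.37, adjusted p = 0.0103), with upper quartile scaling (-1.19), with a floor of 3 in mean log2 CPM (-1.17), with voom (-1.12) and with DESeq2 (-1.02). With offsets it was at -0.64 (adjusted p = 0.274). Ddx3x at 159 ± 19.5 against 156 ± 12.7 CPM and Eif2s3x at 186 ± 53.3 against 189 ± 27.7 CPM held within 2-fold. With offsets both were called lower, Ddx3x at -1.16 (adjusted p = 0.000324) and Eif2s3x at -0.66 (adjusted p = 0.0444). The 464 protein-coding genes tested on the X chromosome had a median log2 difference of 0.72, against 0.01 for 12853 autosomal genes, and 0.20 against 0.05 with offsets.

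Non-messenger RNA also differed in amount. Gm42418 took 53023, 86046, 74174 and 75516 CPM in the control vector libraries and 3346 to 5504 in the scrambled shRNA libraries, 16.9-fold lower (log2 difference -4.08, adjusted p = 4.12e-07). Its annotated transcript shares 96.3% of its 31-base stretches, on either strand, with the ribosomal RNA gene CT010467.1. Mir6236, annotated as a microRNA gene, was 168-fold lower, at 5.55 to 9.18 CPM against 674 to 1684. The GC-rich mature sequence that RefSeq gives for it (GRCm38.p6, chr9:110281353-110281371, plus strand) is shown with its seed, bases 2 to 8, in capitals:
mmu-miR-6236: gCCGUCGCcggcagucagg
Both genes together held 0.257% to 0.469% of counts in the scrambled shRNA and 6.88% to 10.3% in the control vector libraries. Whether reads at Mir6236 come from the mature microRNA was not tested. Leaving both genes out of the fit left 5556 genes called.

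Mitochondrially encoded mRNAs, which are translated by mitochondrial and not by tagged cytosolic ribosomes, were higher in scrambled shRNA. Of 13 tested, 11 were higher and none lower, with a median log2 difference of 3.99, against 0.01 over all genes tested. mt-Nd2, a complex I subunit, was at 28.0, 109, 99.7, 89.4 and 115 CPM against 0.85, 1.94, 1.33 and 2.08 (56.7-fold, log2 difference 5.83, SE 0.51, adjusted p = 1.05e-05). Other complex I subunits followed, with mt-Nd1 10.4-fold, mt-Nd4 26.3-fold and mt-Nd5 28.7-fold higher. Replicate 1 was the lowest of the scrambled shRNA libraries for all 4 genes, and no value overlapped the other group. All mitochondrial genes together made up 0.184% to 0.537% of counts against 0.0627% to 0.110%. The Cdr1 locus also differed, at 4450, 8831, 8095, 7634 and 22176 CPM against 49.6, 159, 100 and 87.6 (103-fold, adjusted p = 1.01e-05). This locus overlaps C230004F18Rik on the other strand and the strand setting is unknown, so its transcripts cannot be separated. Plagl1, an imprinted zinc finger gene, was 26.7-fold higher at 379 ± 174 against 14.2 ± 1.30 CPM.

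**Figure D2:**
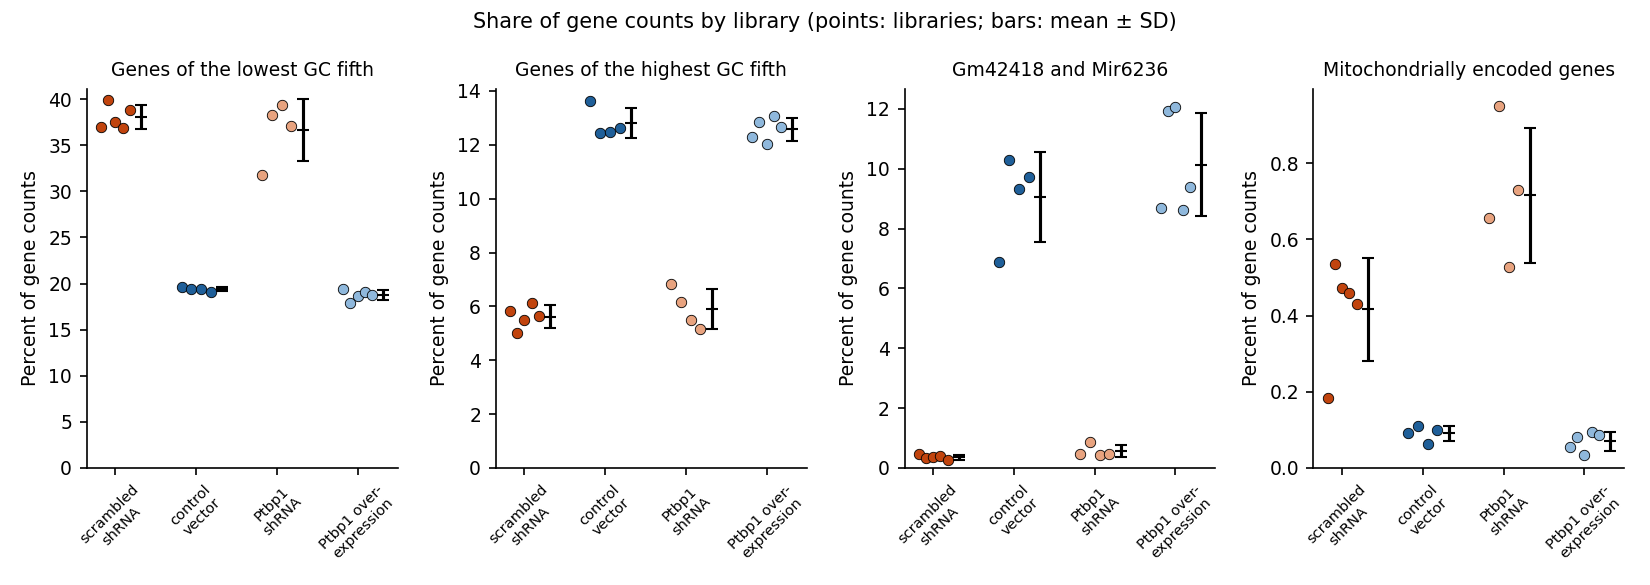
Percent of gene counts per library (points, with mean ± SD beside them) that fell on protein-coding genes with the lowest and highest GC content, on Gm42418 with Mir6236, and on mitochondrially encoded genes, in all 4 groups. Scrambled shRNA and Ptbp1 shRNA libraries lie on one side in each panel, and control vector and Ptbp1 overexpression libraries on the other.

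Base composition of the transcripts went with the direction of the difference. The printed stretches are the first 90 bases of the longest coding exon (mm10) of 2 higher, 1 held and 2 lower genes, with G and C in capitals.
mt-Nd2: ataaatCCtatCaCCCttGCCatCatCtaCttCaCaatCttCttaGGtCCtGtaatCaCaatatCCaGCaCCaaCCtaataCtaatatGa
Luc7l3: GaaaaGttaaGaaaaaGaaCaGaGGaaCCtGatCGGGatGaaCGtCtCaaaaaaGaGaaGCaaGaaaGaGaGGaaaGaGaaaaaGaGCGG
Eef1a1: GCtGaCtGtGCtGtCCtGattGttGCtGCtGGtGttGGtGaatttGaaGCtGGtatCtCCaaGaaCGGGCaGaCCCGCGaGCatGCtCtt
Gnb2: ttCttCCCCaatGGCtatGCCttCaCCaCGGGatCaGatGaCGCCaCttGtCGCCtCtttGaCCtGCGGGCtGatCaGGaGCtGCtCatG
Rplp1: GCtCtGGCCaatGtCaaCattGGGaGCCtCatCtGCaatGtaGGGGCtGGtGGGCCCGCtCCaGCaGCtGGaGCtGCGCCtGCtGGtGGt
They lie at chrM:3914-4003 on the plus strand and, on the minus strand, at chr11:94297078-94297167, chr9:78480059-78480148, chr5:137528818-137528907 and chr9:61913432-61913521. Their GC contents are 36.7% for mt-Nd2, 40.0% for Luc7l3, 53.3% for Eef1a1, 56.7% for Gnb2 and 63.3% for Rplp1. Luc7l3, an SR-related splicing factor, was higher at 476, 731, 472, 385 and 979 CPM against 86.7, 73.6, 82.8 and 89.4. Eef1a1, the elongation factor that brings aminoacyl-tRNA to the ribosome, held at 677, 700, 583, 570 and 714 CPM against 754, 667, 700 and 689. Gnb2, a G protein beta subunit, was lower at 2.47, 3.32, 2.25, 8.02 and 5.41 CPM against 63.6, 52.1, 58.4 and 48.3. Rplp1, an acidic protein of the large ribosomal subunit, was lower at 5.44, 8.67, 12.1, 12.9 and 9.46 CPM against 120, 111, 138 and 137. The values of both groups overlapped for Eef1a1 and for none of the other 4.

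Across 13337 protein-coding genes the log2 difference and the GC content of the longest transcript had a Spearman correlation of -0.654. Genes share libraries and are not independent replicates, so this describes the libraries. In the quintile of genes with 20% to 43.7% GC, 1471 of 2668 were higher and 21 lower, with a median of 1.26. The middle quintile, 47.6% to 51.4% GC, had 372 higher, 236 lower and 402 held of 2667, the most held of any quintile, and a median of 0.06. In the quintile with 55.5% to 76.3% GC, 39 of 2668 were higher and 1061 lower, with a median of -1.52. GC-poorest genes took 36.9% to 40.0% of counts in scrambled shRNA and 19.1% to 19.6% in control vector libraries, and GC-richest genes 5.00% to 6.12% against 12.5% to 13.6%. Transcript length had a weaker correlation of 0.274. Counts over exon bins lay further toward gene ends in scrambled shRNA. The third of a gene's bins nearest the 3′ end, by number and not by length, held 65.4% ± 0.416 against 56.4% ± 1.08. This is the mean share over 4592 genes with at least 9 bins and a mean of at least 500 bin counts. Of exon bins averaging 50 or more counts, 1.08% to 6.03% had no count in a scrambled shRNA library, against 0.0525% to 0.0825% in a control vector library.

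A fit with offsets for GC content and length, added after the trend was seen, was computed for the 15943 tested genes with an annotated transcript. It called 2759 of them (17.3%), 1703 higher and 1056 lower, and 2444 held within 2-fold (15.3%). Of the 5558 calls, 2068 remained in the same direction and 3315 were lost. Among the 127 named genes called, 88 stayed called in the same direction, 28 lost the call but kept the sign, and 11 changed sign. Of those 11, only Hnrnpu, Hnrnpd, Eno1 and Mef2c were still called. Of the 29 named genes that held, 17 no longer did or were called. Median differences by GC quintile became 0.05, 0.10, 0.12, 0.03 and -0.06. The offsets also remove any biological difference that follows GC content. Values from this fit are therefore given beside the main ones, and which part of a difference is technical was not tested.

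**Figure D3:**
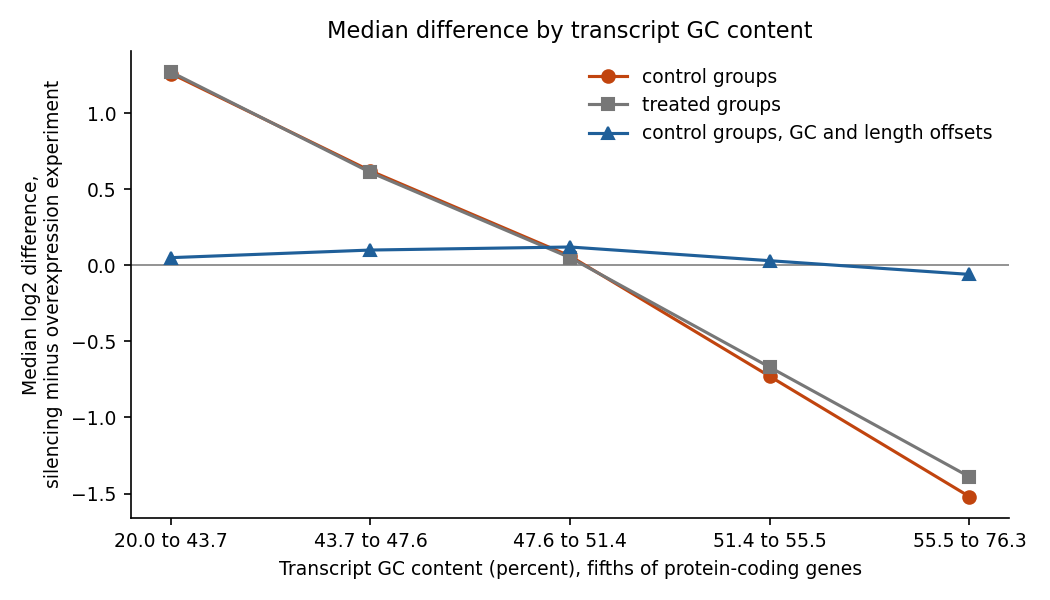
Median log2 difference between experiments for protein-coding genes in 5 equal bins of transcript GC content, for the control groups, for the treated groups, and for the control groups with GC and length offsets. The control medians run from 1.26 in the GC-poorest to -1.52 in the GC-richest bin, and lie between -0.06 and 0.12 with offsets.

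Enzymes of glycolysis, which turns glucose into pyruvate, were lower in scrambled shRNA almost throughout. Of 16 tested, 15 were lower and none higher, with a median log2 difference of -1.43 and a median transcript GC of 53.2%. Aldoa, which splits fructose bisphosphate, was at 618, 498, 439, 509 and 631 CPM against 1488, 1381, 1496 and 1461 (2.70-fold lower, adjusted p = 9.54e-06). Pfkl, a phosphofructokinase subunit, was at 15.7, 8.92, 5.89, 10 and 6.03 CPM against 85.9, 87.2, 96.4 and 92.1 (9.70-fold lower). Tpi1 was 4.25-fold and Eno1 2.06-fold lower. Pgk1 was the exception, held at 296 ± 88.4 against 399 ± 31.8 CPM with an adjusted p of 0.0995, though it was called lower without scrambled shRNA replicate 1 (-0.64), with upper quartile scaling (-0.63), with a floor of 3 in mean log2 CPM (-0.61) and with voom (-0.47). With GC and length offsets 4 enzymes were lower, 1 higher and 8 held, and the median was -0.44; Aldoa was then at 0.04 and Eno1 at 0.49.

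Ribosomal protein mRNAs were lower as well, 37 of 56, with 1 higher, 12 held and a median of -0.99. Rpl19 was at 61.4 ± 14.6 against 206 ± 20.4 CPM (-1.75, adjusted p = 5.61e-05) and Rps3 at 17.5 ± 5.47 against 91.5 ± 8.35 CPM (-2.38, adjusted p = 6.37e-05). Rpl6 was lower by a difference that stayed inside 2-fold, 150 ± 12.2 against 239 ± 14.6 CPM. Rps6, the ribosomal protein phosphorylated by S6 kinase, held at 177, 163, 129, 176 and 164 CPM against 187, 151, 163 and 158. With offsets 21 were lower, 2 higher and 18 held, with a median of -0.64; Rpl19 (-0.61) and Rpl6 (-0.27) no longer passed and Rps6 was higher (1.63).

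Other parts of the protein machinery were mixed. Translation factors had 7 higher, 5 lower and 7 held of 20. The elongation factor Eef2 was lower at 101 ± 30.7 against 331 ± 16.9 CPM (-1.70), Eif4g2 was higher at 1584 ± 232 against 709 ± 36.5 CPM (1.16), and the helicase Eif4a2 held at 653 ± 84.9 against 661 ± 91.4 CPM. With offsets 1 translation factor was higher, 4 lower and 14 held; Eef2 (-0.24) and Eif4g2 (0.02) no longer passed and Eif4a2 was lower (-1.10). Cytosolic tRNA synthetases, which charge tRNA with amino acids, had 2 higher and 7 lower of 20, or 1 and 4 with offsets. Sars, for serine, was 7.28-fold lower and Iars, for isoleucine, 3.26-fold higher. Of 31 proteasome subunits 16 were lower, 2 higher and 9 held, with a median of -0.89, or 13, 1 and 9 with offsets. The base subunit Psmc5 was at 83.0 ± 7.82 against 200 ± 11 CPM (-1.27) and the lid subunit Psmd12 was higher at 159 ± 27.2 against 104 ± 0.847 CPM (0.61), a call lost with upper quartile scaling (0.40). Psmd4, a ubiquitin receptor, was 6.47-fold lower.

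Nuclear genes of the respiratory chain were lower more often than higher. Of 44 tested, 20 were lower, 4 higher and 15 held, with a median of -0.64, or 14, 4 and 21 with a median of -0.27 with offsets. Ndufb9, a complex I subunit, was at 38.4 ± 8.39 against 141 ± 17.3 CPM (-1.88, adjusted p = 3.27e-05). Cycs, which encodes cytochrome c, was higher at 614, 485, 709, 731 and 619 CPM against 251, 241, 242 and 253 (1.36, adjusted p = 2.36e-05), and Cox7b was higher at 244 ± 26.9 against 120 ± 5.45 CPM. Neither passed with offsets (0.34 for Cycs and 0.19 for Cox7b). Atp5b, the catalytic subunit of ATP synthase, held at 2782, 2284, 2422, 2753 and 2345 CPM against 2484, 2997, 2652 and 2374, though with offsets it was called higher inside 2-fold (0.49). The vacuolar proton pump, which acidifies vesicles and lysosomes, had 8 lower, 4 higher and 6 held of 16, or 4, 1 and 6 with offsets. Atp6v1g2, its neuronal G subunit, was higher at 2781 ± 107 against 992 ± 169 CPM (1.49), and Atp6v1c1 held at 312 ± 36.2 against 345 ± 26.4 CPM, but was called lower with offsets (-0.90) and inside 2-fold with upper quartile scaling (-0.35).

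**Figure D4:**
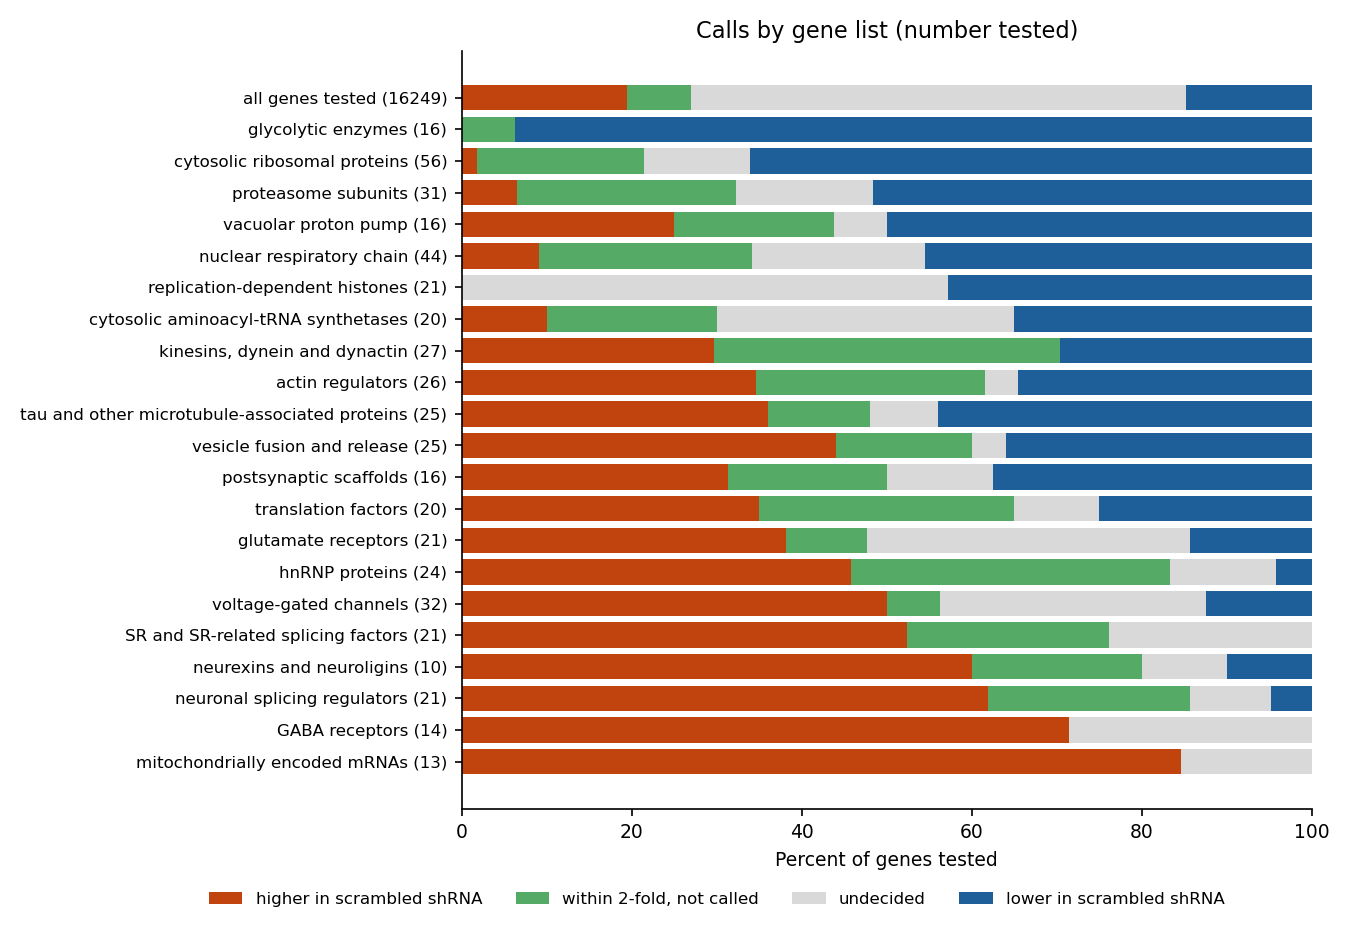
Percent of tested genes in each list that were higher or lower in scrambled shRNA, held within 2-fold without being called, or undecided, with the number tested in brackets and all genes tested in the top row. Glycolytic enzymes (15 of 16 lower) and mitochondrially encoded mRNAs (11 of 13 higher) lie at the ends. The motor proteins have the largest share held without being called among the lists drawn.

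Synaptic vesicle genes split in both directions, 11 higher, 9 lower and 8 held of 25, or 10, 1 and 11 with offsets. Snap25, the membrane SNARE of vesicle fusion, was at 74728, 62490, 60930, 73588 and 77700 CPM against 14205, 14767, 12086 and 11155 (5.35-fold higher, log2 difference 2.42, SE 0.12, adjusted p = 5.72e-07). Syn1, a synapsin that tethers vesicles, was at 8107, 6028, 6045, 7423 and 6892 CPM against 1156, 1327, 1079 and 933 (6.14-fold higher). Its transcript has 57.9% GC, and its difference was larger with offsets, 4.16 against 2.62. Syp, the vesicle protein synaptophysin, was lower at 172, 287, 191, 261 and 220 CPM against 826, 759, 756 and 794 (3.47-fold, adjusted p = 1.00e-05), also with offsets (-2.17). The small GTPase Rab3a was 3.54-fold lower, but did not pass with offsets (-0.62). The list's median of 0.16 was -0.04 under upper quartile scaling. Syn2 was lower and Nsf, the ATPase that takes SNARE complexes apart, higher by differences inside 2-fold (-0.65 and 0.62), and Syn2 did not pass with offsets (-0.21).

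Postsynaptic scaffolds had 5 higher, 6 lower and 3 held of 16, or 6, 3 and 5 with offsets. Homer1 was at 368, 380, 360, 377 and 360 CPM against 88.0, 82.4, 93.1 and 91.8 (2.05, adjusted p = 8.60e-07), but did not pass with offsets (0.28). Homer2 was 5.16-fold and Shank2 4.03-fold higher, whereas Dlgap3, with 63.9% GC, was 8.61-fold lower. Dlg1 and Dlg3, scaffolds of the PSD-95 family, held at 125 ± 15.2 against 111 ± 10.5 and 93.7 ± 17.1 against 105 ± 3.25 CPM, but with offsets Dlg1 was called lower (-0.79).

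Adhesion molecules of the synapse were mostly higher, 6 of 10 with 1 lower and 2 held and a median of 1.57, or 5, 0 and 3 with a median of 0.74 with offsets. Lrrtm2, a postsynaptic adhesion protein, was at 159, 308, 224, 198 and 384 CPM against 37.8, 31.8, 33.1 and 33.4 (2.90, SE 0.26, adjusted p = 1.4e-05), and 1.27 with offsets. The groups did not overlap. The neuroligin gene Nlgn1 was 3.02-fold higher, but at -0.19 with offsets. Nlgn3 at 119 ± 19.2 against 99.4 ± 10.4 CPM and Lrrtm1 at 86.1 ± 24.6 against 94.9 ± 7.01 CPM held, but Lrrtm1 was called higher with offsets (1.02).

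Receptors for GABA, the main inhibitory transmitter, had 10 of 14 higher and none lower, with a median of 1.58 and a median GC of 42.6%. Gabra2 was at 91.8, 157, 125, 148 and 216 CPM against 14.2, 11.9, 13.2 and 11 (3.55, adjusted p = 4.63e-06). Gabra5, another alpha subunit gene, was 5.44-fold higher. Gabbr2, of the metabotropic receptor, was higher at 419 ± 23.7 against 170 ± 7.59 CPM although its transcript has 56.0% GC. With offsets 6 GABA receptor genes were higher, none lower and 3 held, with a median of 0.69.

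Glutamate receptors had 8 higher, 3 lower and 2 held of 21, or 7, 1 and 3 with offsets. The AMPA receptor subunit Gria3 was at 505, 899, 1118, 923 and 1042 CPM against 131, 87.9, 95.1 and 91.8 (3.14, adjusted p = 5.34e-06), and the NMDA receptor subunit Grin2b was 4.83-fold higher. Gria1, another AMPA receptor subunit, held at 82.2 ± 26.5 against 109 ± 6.68 CPM, but its interval passed 2-fold without scrambled shRNA replicate 2 or 4 (-0.51 and -0.55) or any of control vector replicates 1 to 3 (-0.42, -0.44 and -0.41), with upper quartile scaling (-0.62), a floor of 3 in mean log2 CPM (-0.58) or all 18 libraries in the fit (-0.40), and with offsets (-0.64). Voltage-gated channels had 16 higher, 4 lower and 2 held of 32, with a median of 1.10. Kcnq3, a subunit of the M-current channel, was at 1936, 2385, 2306, 2433 and 2597 CPM against 288, 370, 301 and 320 (2.87, adjusted p = 4.12e-07). The sodium channel Scn8a was 5.03-fold and the potassium channel Kcnh7 5.65-fold higher. The sodium channel beta subunit Scn2b (0.17, interval -0.23 to 0.57) and the calcium channel Cacna1a (0.12, interval -0.52 to 0.76) held. With offsets 12 channels were higher, Cacna1a among them (1.31), and none lower, with a median of 0.75.

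Regulators of neuronal splicing were higher in 13 of 21 cases, with 1 lower, 6 held and a median of 1.17, or 8, 1 and 8 with a median of 0.46 with offsets. Their share higher was 61.9%, against 19.4% of all genes tested and 56.2% of those in the highest level quintile. Rbfox1 was at 934, 900, 982, 900 and 1044 CPM against 189, 170, 159 and 156 (2.5, SE 0.11, adjusted p = 4.12e-07), and stayed at 2.05 with offsets. Its paralog Rbfox2 held at 165, 191, 172, 195 and 193 CPM against 156, 207, 198 and 185. Celf2, Mbnl2 and Elavl4 were 3.35-fold, 3.72-fold and 2.71-fold higher, and Celf2 (0.43) and Elavl4 (0.07) did not pass with offsets. Srrm4, which promotes microexons, was higher at 137 ± 19.3 against 53.2 ± 7.38 CPM (1.36).

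Among SR and SR-related factors, which recruit the spliceosome to exons, 11 of 21 were higher, none lower and 6 held, with a median of 0.72. The share higher was 52.4%, against 19.4% of all genes tested and 56.2% of those in the highest level quintile. With offsets 4 were higher, 3 lower and 3 held, with a median of 0.30. Srrm2, a spliceosome scaffold, was at 968 ± 197 against 348 ± 67.0 CPM (1.48), and Srsf7 held at 46.2 ± 8.96 against 60.1 ± 7.42 CPM, though not without control vector replicate 1 (-0.47), with upper quartile scaling (-0.59) or a floor of 3 in mean log2 CPM (-0.56), and it was lower with offsets (-1.28). The hnRNP proteins, which coat pre-mRNA, had the largest held share of the 3 splicing lists, 14 of 24, with 11 higher (45.8%) and 1 lower. This share higher was also below that of the highest level quintile. Hnrnpa3 was 3.85-fold and Hnrnpa0 2.71-fold higher, and Hnrnpu was higher inside 2-fold (0.58). Their median was 0.37 in the main fit and -0.23 with offsets, where 5 were higher and 7 lower and Hnrnpu was at -0.84.

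Cytoskeletal genes were balanced. Of 27 kinesin, dynein and dynactin genes, 8 were higher, 8 lower and 12 held, 44.4%. Held shares depend on level, and were 0%, 0%, 2.77%, 14.9% and 25.4% from the lowest to the highest level quintile of all genes tested. With offsets 4 were higher, 3 lower and 16 held, and Kif5b (0.43) and Dctn1 (-0.90), named next, did not pass. Kif5b, a kinesin heavy chain, was higher at 449 ± 83.6 against 135 ± 11.2 CPM (1.73), and the dynactin subunit Dctn1 lower at 23.7 ± 7.18 against 128 ± 14 CPM (-2.44). Dynll1, a dynein light chain, was at 469 ± 37 against 383 ± 31.7 CPM and held (0.29, interval 0.05 to 0.54), and it was called higher without scrambled shRNA replicate 4 (0.34, adjusted p = 0.0401). Microtubule genes had 9 higher, 11 lower and 4 held of 25, or 7, 6 and 10 with offsets. Tuba1a was at 1078, 494, 673, 648 and 619 CPM against 2749, 2640, 2643 and 2592 (3.78-fold lower, adjusted p = 2.65e-05), Tubb2a was 3.40-fold lower and Map9 2.44-fold higher, or 0.17 and not called with offsets. Actin regulators had 9 higher, 9 lower and 10 held of 26, or 4, 3 and 16 with offsets. The kinase Pak3 was higher at 563 ± 59.5 against 173 ± 12.5 CPM and the exchange factor Kalrn lower at 976 ± 90.1 against 1772 ± 270 CPM; Pak3 did not pass with offsets (0.01). Pfn2, a profilin, held at 303 ± 43.5 against 325 ± 8.07 CPM, and was called higher inside 2-fold with offsets (0.53).

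Apart from lists, the 8 held genes with the narrowest intervals among genes of at least 4 on the mean log2 CPM scale were Atp5b, Stmn2, Ndrg4, Eef1a1, Ghitm, Ppia, Dynll1 and Ppp2ca. Stmn2, a regulator of microtubule growth in axons, was at 770, 771, 689, 747 and 602 CPM against 682, 630, 663 and 633 (0.14, interval -0.10 to 0.37). Ndrg4 was at 3145, 2307, 2351, 2606 and 2785 CPM against 2281, 2409, 2405 and 2473 (interval -0.09 to 0.38). Ghitm, of the inner mitochondrial membrane, was at 386 ± 27.8 against 343 ± 25.5 CPM, and Ppp2ca, a phosphatase catalytic subunit, at 477 ± 50.6 against 420 ± 23.5 CPM. With offsets Stmn2 was at -0.85 and Ndrg4 at 1.12, outside the 2-fold bound, and Ghitm (-0.67) and Ppp2ca (-0.72) were called lower inside it, so which genes held depends on that choice. Eef1a1 was called lower inside 2-fold with upper quartile scaling (-0.32) and with a floor of 3 in mean log2 CPM (-0.29). Ppia, a common reference gene, was at 1145 ± 149 against 1405 ± 26.3 CPM, within 2-fold but with groups that did not overlap (-0.30, adjusted p = 0.0596), and it was called lower without scrambled shRNA replicate 1 (-0.36, adjusted p = 0.0209) and under 6 other settings (-0.50 to -0.30), among them RLE size factors and DESeq2.

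Reference genes for normalization had 6 higher, 5 lower and 5 held of 18, or 3, 2 and 9 with offsets. Gapdh was lower at 1881, 1334, 1303, 1506 and 1688 CPM against 3061, 3580, 3004 and 2665 (-1.0, adjusted p = 0.000186; -0.29 and not called with offsets, adjusted p = 0.23), Tubb5 was 3.06-fold lower, and Actb lower inside 2-fold at 567 ± 95.5 against 865 ± 23 CPM. Hprt was 2.12-fold and Ywhaz 2.53-fold higher. With offsets Actb (-0.13) and Hprt (0.01) did not pass.

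Some copies of Gapdh were higher, an observation made after the values were seen. The processed pseudogene Gm5138 was at 62.0, 49.3, 51.0, 46.4 and 60.7 CPM against 1.43, 1.23, 0.709 and 1.19 (5.55, adjusted p = 1.18e-06), and Gm3272 and Gm2574 were 35.5-fold and 24.3-fold higher. They share 90.4%, 86.4% and 90.4% of their 31-base stretches with Gapdh, so reads may not be assigned to one of them with certainty. Below is the 90-base window in which the copies differ most from the parent (mm10), with each copy's differing bases in capitals, to show how alike they are.
Gapdh: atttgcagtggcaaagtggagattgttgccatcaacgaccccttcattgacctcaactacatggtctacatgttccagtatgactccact
Gm5138: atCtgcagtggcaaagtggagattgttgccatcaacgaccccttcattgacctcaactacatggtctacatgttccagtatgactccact
Gm3272: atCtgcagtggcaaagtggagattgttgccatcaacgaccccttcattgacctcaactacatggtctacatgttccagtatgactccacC
Gm2574: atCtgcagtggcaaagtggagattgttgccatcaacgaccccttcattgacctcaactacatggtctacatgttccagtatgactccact
The windows lie at chr6:125163310-125163399, chr6:83875231-83875320 and chr8:92716779-92716868 on the minus strand and chr3:142962671-142962760 on the plus strand. Gm5138 and Gm2574 differ from Gapdh at 1 base of 90 and Gm3272 at 2. Of 125 pseudogenes that share at least 100 such stretches with Gapdh, 67 were tested, of which 17 were higher, 9 lower and 7 held, with a median of 0.22. Other pseudogenes also matched expressed genes. Gm10222 (22.4-fold higher) shares 100% of its stretches with mt-Nd4l, and Gm11914 (24.1-fold higher) 85.5% with Hmgn5; without scrambled shRNA replicate 5 Gm11914 was at 3.75 in place of 4.59. Over the annotation, 108 of 948 processed pseudogenes were higher (11.4%) and 134 lower (14.1%), or 80 and 37 with offsets. Of 65 unprocessed ones 28 were higher (43.1%) and 3 lower (4.62%), or 21 and 3 with offsets. Of 133 miRNA genes 42 were lower (31.6%) and 5 higher (3.76%), or 24 and 4 with offsets. Beside the counts without offsets, 19.4% of all genes tested were higher and 14.8% lower.

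Among genes of at least 4 on the mean log2 CPM scale whose groups did not overlap, the 12 with the largest negative difference held 8 besides Gm42418, Mir6236, Rplp1 and Gnb2. Samm50, of the mitochondrial sorting and assembly machinery, was at 1.10, 1.57, 0.995, 4.29 and 1.06 CPM against 30.0, 36.2, 36.9 and 44.1 (20.3-fold lower). Pitpnm1, a phosphatidylinositol transfer protein, was 16.9-fold, Serhl 16.6-fold, Flywch1 16.2-fold, the pseudogene Gm7666 12.6-fold, Hspbp1, a cochaperone, 12.5-fold, Mcrip1 12-fold and the small GTPase Arl2 10.6-fold lower. With offsets Gm7666 (-2.23), Hspbp1 (-1.90, adjusted p = 0.17) and Mcrip1 (-1.94, adjusted p = 0.074) no longer passed. Single libraries set some of these sizes: without scrambled shRNA replicate 4, Samm50 was at -4.95 in place of -4.34 and Mcrip1 at -4.37 in place of -3.58, and without replicate 5 Hspbp1 was at -4.58 in place of -3.64. Of 8534 genes with a mean of at least 10 CPM in control vector libraries, 86 were at 0 in 1 or more scrambled shRNA libraries, 3 to 69 per library, and none in all 5. In the other direction, of 8252 genes with at least 10 CPM in scrambled shRNA, 4 were at 0 in 1 or more control vector libraries, and these were the Y-linked genes above, at 0 in all 4.

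Stress and activity genes showed no common direction. As background for the list counts below, 19.4% of all genes tested were higher and 14.8% lower. Heat shock genes had 5 higher, 4 lower and 4 held of 13, with Hsp90aa1 higher at 3311 ± 402 against 1620 ± 116 CPM and Hspa8 lower at 1089 ± 156 against 1917 ± 237 CPM. Targets of p53 had 3 higher, 1 lower and 1 held of 15, so their share higher was close to that of all genes tested. Mdm2, the p53 ligase, was 2.56-fold higher, Zmat3 2.70-fold higher and the cell cycle inhibitor Cdkn1a lower at 25.3 ± 8.63 against 46.4 ± 4.77 CPM (-0.87, adjusted p = 0.0397). The call for Cdkn1a was lost without scrambled shRNA replicate 3 (-0.77) or any 1 control vector library (-0.93 to -0.81). Unfolded protein and integrated stress genes had 4 higher, 3 lower and 3 held of 19, with the cochaperone gene Dnajb9 7.62-fold higher and the transcription factor gene Atf5 24.5-fold lower. Of 22 immediate early genes 3 were higher, 5 lower and 4 held. Egr1 held at 301, 170, 250, 215 and 247 CPM against 229, 250, 254 and 227 (but 1.31 and called higher with offsets), while Egr3 was lower at 2.29 ± 1.69 against 19.8 ± 2.60 CPM and Nr4a2 higher at 310 ± 103 against 89.3 ± 19.1 CPM. Interferon response genes had 1 of 15 higher and none lower. Antigen presentation genes had 1 higher and 2 lower of 8, with a median of -2.05, or -1.10 with offsets. B2m, 4.79-fold higher, was the only 1 of them with a positive difference. The neurotrophin gene Bdnf was 3.41-fold higher, but did not pass with offsets (0.63). Histone genes whose mRNA lacks a poly(A) tail had 9 of 21 lower and none higher, or 4 lower and none higher with offsets. Hist1h1e was at 0.945 ± 0.394 against 20.2 ± 4.20 CPM and Hist1h4d at 13 ± 5.04 against 70.0 ± 8.23 CPM.

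Markers of excitatory neurons were well detected in both groups. On the TMM scale all genes tested together summed to 1129000 to 1305000 CPM in scrambled shRNA and 779900 to 850100 CPM in control vector libraries, so every summed marker level below carries that general difference. Reln, a marker of entorhinal layer II stellate cells, held at 235, 218, 226, 254 and 139 CPM against 163, 281, 264 and 302. Camk2a was higher at 3095 ± 829 against 1317 ± 218 CPM, Rorb 6.11-fold higher, and the vesicular glutamate transporter gene Slc17a7 lower at 237 ± 80.6 against 468 ± 32.5 CPM, or 0.47 with offsets. In all, superficial markers had 4 higher, 1 lower and 2 held of 13, with a summed level of 4970 to 6990 against 3164 to 3794 CPM, Camk2a included. The deep layer marker Etv1 was 6.13-fold higher, and the 7 deep markers summed to 1684 to 2135 against 397.9 to 607.0 CPM. In bulk libraries, fewer cells of a type and less RNA per cell cannot be told apart.

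Hippocampal markers, the tissue named in the labels, were low, with 6 of 9 tested, a sum of 101.1 to 253.8 against 25.76 to 51.07 CPM, and Iyd at 0 in all scrambled shRNA libraries. Zbtb20, which is also made by other cells, was higher at 152 ± 70.2 against 21.8 ± 6.52 CPM. Interneuron markers summed to 442.9 to 560.6 against 195.3 to 336.9 CPM, with 3 of 12 higher (25.0%, against 19.4% of all genes tested), among them Erbb4 (4.08-fold) and Sst (3.29-fold), and Gad2 higher at 165 ± 34.2 against 102 ± 24.7 CPM with overlapping groups; this call was lost without control vector replicate 2, 3 or 4 (0.72, 0.62 and 0.59) and under 4 other planned settings (0.49 to 0.71). Erbb4 did not pass with offsets (0.45). Astrocyte markers summed to 1015 to 1586 against 501.6 to 728.1 CPM. Of 13 tested, 2 were higher and 2 lower (15.4% each, against 19.4% and 14.8% of all genes tested). Their median was 0.23 in the main fit and -0.91 with voom. Slc1a2 and Atp1b2 were 2.19-fold and 2.98-fold higher and Aldoc 6.59-fold lower, and Slc1a2 did not pass with offsets (0.22).

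Oligodendrocyte markers summed to 99.48 to 150.5 against 114.3 to 132.3 CPM; Mbp was 2.75-fold lower and Cnp 1.62-fold higher, a call lost without control vector replicate 2, 3 or 4 (0.68, 0.64 and 0.64), with upper quartile scaling (0.48) or with a floor of 3 in mean log2 CPM (0.52), and Mag was at 0 in all scrambled shRNA libraries. Microglial markers reached 2.822 to 29.41 against 8.943 to 11.22 CPM, with 5 of 11 tested, and Trem2, Tyrobp, C1qa and C1qc at 0 in all scrambled shRNA libraries. P2ry12, a microglial receptor, passed the test as higher, but scrambled shRNA replicate 2 held 11.1 CPM against 0.474 to 2.07 in the other 4, and without it the adjusted p was 0.0795 (log2 difference 2.06 in place of 3.40). It did not pass without any 1 control vector library either (3.15 to 3.70), without a filter (3.39) or with offsets (2.04). Of 10 vessel markers 7 were tested and 3 were lower (42.9%, against 14.8% of all genes tested). Vtn, Cldn5, Kdr and Ly6c1 were at 0 in all scrambled shRNA libraries. The sum of the 7 tested was not lower, at 17.23 to 81.59 against 10.15 to 36.29 CPM. Haemoglobin genes Hba-a1 and Hba-a2, which are near-identical copies, were at 0 in 4 of 5 scrambled shRNA libraries and at 3.02 to 4.83 and 3.28 to 5.07 CPM in the control vector group. Of the 5 blood genes tested 2 were lower and none higher, but 3 had a positive difference. The 5 summed to 0 to 29.05 against 14.96 to 16.88 CPM. No marker of these lists was at 0 in all control vector libraries. Apart from Vtn, the markers named as at 0 in all scrambled shRNA libraries had too few counts to be tested. Scrambled shRNA libraries also detected fewer genes of any kind, 14841 to 17013 against 19893 to 20719. The share of all genes at 0 throughout each group was not computed, so these zeros cannot be set apart from that general difference. The part of other cells in the differences above was not tested.

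The same contrast of experiments was fitted in the other 9 mice, Ptbp1 shRNA (4 libraries) against Ptbp1 overexpression (5 libraries), which share no library with the control groups but share their experiments and carry opposite Ptbp1 vectors. Of 16728 genes tested there, 6266 were called (37.5%), 3356 higher and 2910 lower. Of 5528 genes called between the controls and tested in the treated mice, 5261 had the same direction, 3747 were called in it and 17 were called in the opposite one. Across 16007 genes the log2 differences had a Pearson correlation of 0.63, and the correlation with GC content was -0.613 in the treated mice. The difference of both contrasts, tested as an interaction in all 18 libraries, passed for 40 of 17779 genes, with 2593 at an unadjusted p under 0.05.

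**Figure D5:**
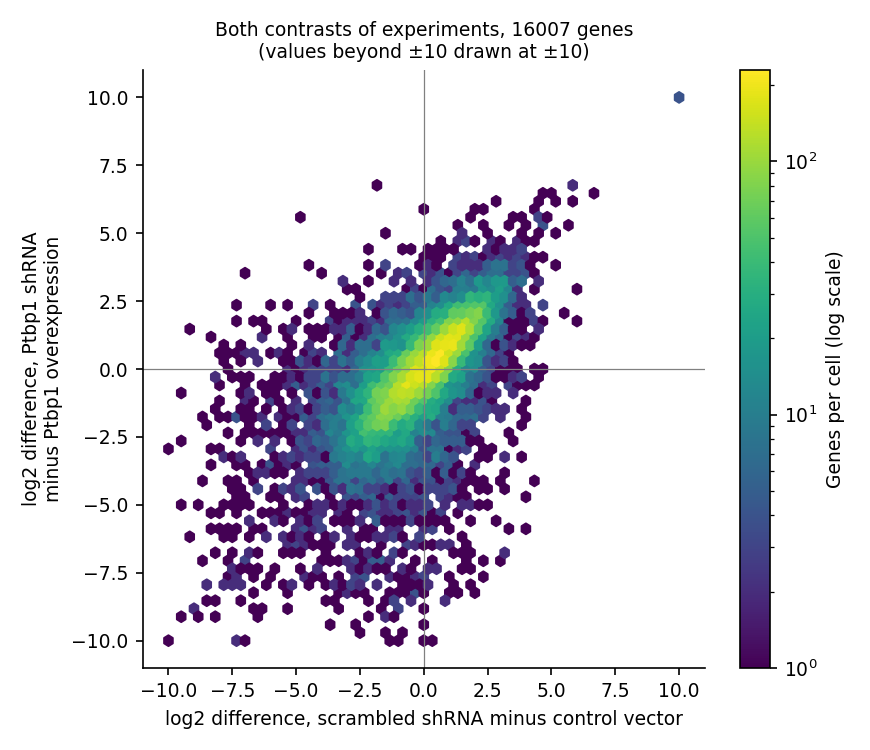
Log2 difference of scrambled shRNA minus control vector (x axis) against Ptbp1 shRNA minus Ptbp1 overexpression (y axis) for 16007 genes, shaded by the number of genes per hexagon. Most genes lie along the rising diagonal, with a Pearson correlation of 0.63.

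Of the 127 named genes called between the controls, 125 had the same sign in the treated mice. P2ry12 (-0.64) and Cdkn1a (1.41) had the other sign. Snap25 was at 2.24 there and 2.42 between the controls, Homer1 at 2.03 and 2.05, and mt-Nd2 at 6.74 and 5.83. Among lower genes, Rplp1 was at -3.87 and -3.70, Pfkl at -3.18 and -3.28, and Gm42418 at -3.72 and -4.08. All 4 Y-linked genes were called higher in Ptbp1 shRNA libraries, whereas Xist did not pass there (-2.97, adjusted p = 0.12). Glycolytic enzymes were lower in 14 of 16, ribosomal proteins in 32 of 56, and GABA receptors higher in 10 of 14. Not every list repeated. The median of p53 targets was -0.48 between the controls and 1.22 in the treated mice, with 6 of 15 higher and none lower there. Unfolded protein and integrated stress genes went from -0.29 to 0.78 and tRNA synthetases from -0.72 to 0.08. Superficial markers went from 0.44 to -0.05, interneuron markers from 0.47 to -0.25 and astrocyte markers from 0.23 to -0.55. Of genes lower between the controls, Syp did not pass in the treated mice (-0.94, adjusted p = 0.17). The asparagine tRNA synthetase gene Nars held between the controls at 162 ± 33.4 against 205 ± 5.54 CPM, though it was called lower without scrambled shRNA replicate 4 (-0.45), with upper quartile scaling (-0.55) and with a floor of 3 in mean log2 CPM (-0.52), and was higher in the treated mice (0.90).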

How the data were processed

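TRAP libraries were sequenced from 18 mice, 1 library per mouse. The authors deposited whole-number counts per gene for each experiment and counts per exon bin for each library, without normalization. The submitters' processing notes name STAR 2.5.3a, HTSeq and mm10. The strand setting, the annotation release and each tool's role were not given in the sources used here. Of 158 genes named, 55 overlap a gene of the other strand, whose reads may not be told apart. Groups were taken from the treatment labels. Both gene tables were joined by gene identifier. Counts were filtered with filterByExpr, scaled by TMM and tested with edgeR 4.0.16 (R 4.3.3; robust quasi-likelihood F test, Benjamini-Hochberg adjustment at 0.05), with only the 9 control libraries in the fit. Levels are CPM on the TMM scale. A gene was held where the 95% interval of its log2 difference lay between -1 and 1. The p-values measure the spread between these 9 mice. Library measures were compared by exact permutation over all splits.

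GC content and length are those of the longest transcript in GENCODE M21 (GRCm38), found for 98.1% of tested genes. Names came from the gene name table, microRNA sequence from RefSeq.

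The genes named are Ptbp1, Ptbp2, Ptbp3 and Mapt, up to 12 higher and 12 lower genes with the largest difference, called, not overlapping and averaging at least 4 in log2 CPM, the 8 held genes with the narrowest interval, and, from each list, the 4 members with the smallest p and the 2 held members with the narrowest interval; any member of a list of 13 or fewer could be named. The members of the comparison and the gene lists were chosen with earlier results of these data known. On simulated counts for this comparison (15810 genes), 134 of 200 genes changed 4-fold were recovered and 5 of 15610 unchanged genes called. The changed genes were drawn only from well expressed genes, so the recovery does not cover genes of low level. These counts held no GC trend, so neither rate covers libraries that differ by GC content as these do. Alternatives were RLE and upper quartile scaling, no filter, a floor of 3 in mean log2 CPM, limma 3.58.1 voom, DESeq2 1.42.0, thinning, a test against 2-fold, all 18 libraries, and leaving out each library.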

Additional observations from a re-analysis of the deposited data

Results flagged for a closer look

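Of 334 groups of values examined, 26 had 1 library far from the others by Dixon's test, where chance alone gives about 1 in 20; 10 of the 26 were scrambled shRNA replicate 5.

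Scrambled shRNA replicate 5 had 14841 genes detected (16418 to 17013 in the other 4), 14376 at equal depth (15828 to 16313), 6.03% of strong exon bins at 0 (1.08% to 1.97%) and 1.70% of counts at Cdr1 (0.379% to 0.756%). In CPM it was high for Cdr1 (22176, others 4450 to 8831), Celf2 (2538, others 1663 to 1816), Gm11914 (98.9, others 14.8 to 29.8), Ptbp3 (86.6, others 48.1 to 59.1) and Aif1 (0.146, others up to 0.025), and low for Psmc5 (69.4, others 83.7 to 89.1).

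Scrambled shRNA replicate 1 was high for Pgk1 (453 CPM, others 245 to 275) and Hprt (411, others 319 to 344) and had 43.7% of reads in no exon bin (others 44.6% to 45%). Replicate 2 was high for Ddx3y (95, others 43.3 to 56.5), Gabra5 (218, others 159 to 170), Rorb (206, others 149 to 161) and P2ry12 (11.1, others 0.474 to 2.07). Replicate 4 was high for Samm50 (4.29, others 0.995 to 1.57) and was the only scrambled shRNA library with counts at Hba-a1 (0.125) and Hba-a2 (0.0999).

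In the control vector group, replicate 1 was low for Kdm5c (25.1 CPM, others 33.9 to 34.9), high for Gria3 (131, others 87.9 to 95.1) and Rorb (41.5, others 20.4 to 23.4), and had 13.6% of counts in GC-richest genes (others 12.4% to 12.6%). Replicate 4 was high for Pitpnm1 (43.9, others 36.0 to 37.4) and replicate 3 low for Mdm2 (48.2, others 54.9 to 56.2).

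Among the genes named, the difference between experiments was itself different in treated and control mice for Nars (by 1.27 on the log2 scale, adjusted p = 0.0174) and Cdkn1a (by 2.31, adjusted p = 0.0394), in the fit with all 18 libraries. Cdkn1a was lower in silencing than overexpression libraries among controls (-0.87) and higher among treated mice (1.41).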

How the results depend on the processing

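No paired analysis was possible because the labels give the groups no shared replicate numbers. Calls ranged from 4768 (of 9409 genes, floor of 3 in mean log2 CPM) to 7774 (voom) over scaling, filter, tool and depth settings, with 5457 by upper quartile scaling, 6785 by DESeq2 and 6215 of 24034 genes without a filter. Against a 2-fold difference 2283 genes passed. Leaving out 1 library gave 4230 to 6460 calls and 997 to 1739 held genes, and 4893 to 7460 calls in the treated mice. Of 127 named genes called, 118 kept their call and direction under the planned scaling, filter, tool and depth settings, and 22 of 29 held genes stayed held. Over all planned settings, those that leave out a library or test against 2-fold included, 94 and 21 did. Reads in no exon bin differed by -1.80 percentage points without control vector replicate 1 (exact permutation p = 0.0357), against -1.09 with it.

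GC and length offsets, added after seeing the data, left 2759 calls and 2444 held genes. Of the named genes 88 of 127 kept their call, 28 lost it without a change of sign, and 11 changed sign, called or not. Of 29 held genes 17 were no longer both held and uncalled. The offsets turned the sign of Ptbp2 (-0.40), Nlgn1 (-0.19), Hnrnpu (-0.84), Hnrnpd (-0.91), Aldoa (0.04), Eno1 (0.49), Kif5c (-0.02), Mef2c (-0.38), Slc17a7 (0.47), Gad2 (-0.19) and Cdkn1a (0.24). List medians became 2.60 for mitochondrial mRNAs, -0.64 for ribosomal proteins, -0.73 for proteasome subunits, -0.44 for glycolytic enzymes, 0.69 for GABA receptors, 0.75 for voltage-gated channels, -0.23 for hnRNP proteins, 0.46 for neuronal splicing regulators and -1.43 for histones. Medians also changed sign for oligodendrocyte markers (0.35), cholesterol synthesis (-0.10), immediate early genes (0.09), long non-coding RNAs (-0.25) and reference genes (0.06). With upper quartile scaling medians were -1.20 for ribosomal proteins, -1.09 for proteasome subunits, 0.16 for hnRNP proteins and 0.95 for neuronal splicing regulators, and with a floor of 3 in mean log2 CPM they were -1.06, 0.20 and 0.99 for the last 3. Voom gave -2.77 for histones and -0.05 for cholesterol synthesis, whose median ran from -0.18 (without scrambled shRNA replicate 1) to 0.33 when 1 library was left out. Leaving out 1 library gave 1.00 to 1.28 for neuronal splicing regulators and -2.39 to -1.50 for histones. The causes of these shifts were not tested beyond the offsets' own construction.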
